A study of Mus musculus with 6 samples.

Results

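The genes described here belong to the unfolded protein response and to the folding machinery of the endoplasmic reticulum (ER) in cells of the murine lung cancer line 889. They were taken by symbol from a list of 40 names. Of these names, 39 had a row in the count tables, and 37 passed a filter that asked for a sum above 500 counts across all 6 libraries, as did 10046 of the 34745 genes listed. Selenos had no row under that symbol, but the same gene was listed under its older name Vimp. Derl3 and Dnajb9 did not pass. The filter did not select members through 1 group alone, since all 37 also exceeded 500 counts in each group taken separately, with a lowest sum of 920 counts in sg-con (Sdf2l1) and of 1441 counts in sg-kiaa1522 (Sec61g).

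RNA-seq had been performed on 3 libraries labelled sg-con and 3 libraries labelled sg-kiaa1522, all of line 889, with strain C57BL/6 and lung as tissue. The treatment label was "control" for sg-con and "KIAA1522-downregulated" for sg-kiaa1522, and no drug or other agent was named. Per the study's methods, cells received Cas9 and a single guide RNA from a lentiCRISPRv2 vector, with a guide against EGFP as control, and were selected with puromycin or by cell sorting. Which kiaa1522 guide was used for these libraries, and whether they came from 1 clone or a pool, was not given in the sources used here. The labels do not say whether replicates were separate cultures, so the p-values measure the spread between these libraries, which may be technical.

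The libraries held 17487797, 18559660 and 16581000 counts in sg-con and 12220001, 18609376 and 17102633 counts in sg-kiaa1522. The targeted gene kiaa1522 (listed as C77080) stood at 126, 129 and 123 CPM (counts per 1000000 counts of the library, after TMM scaling for library composition) in sg-con and at 209, 202 and 215 CPM in sg-kiaa1522. Its mRNA was therefore higher in every library labelled sg-kiaa1522, which goes against the label "downregulated" at the level of mRNA (log2 fold change 0.73, SE 0.0569, adjusted p = 9.1e-05), and each direction below refers to the labels. Gene counts do not show whether a guide disrupted the protein. Of 9 lung epithelial markers, 5 passed the filter (Krt8, Krt18, Nkx2-1, Cdh1 and Sftpb), while Epcam was at 0 in all 6 libraries. The summed level of the 9 was 3203 to 3728 CPM in sg-con and 2809 to 2986 CPM in sg-kiaa1522, almost all of it from Krt8 and Krt18. Cdh1 was at 51.8, 55.2 and 61.5 CPM in sg-con and 21.2, 19.2 and 21.2 CPM in sg-kiaa1522. Nkx2-1 varied within both groups, at 55.4, 58.8 and 13.6 CPM in sg-con and 10.8, 9.45 and 39.3 CPM in sg-kiaa1522, so that replicate 3 stood apart in each. The summed level of 7 fibroblast markers, of which Col1a2 alone passed the filter, was 423 to 439.8 CPM against 145 to 163 CPM, with Thy1 at 0. For 7 immune markers it was 20.7 to 22.4 CPM against 41.4 to 48.3 CPM, of which Cd68 and Cd14 passed the filter and Cd3e was at 0. For 5 endothelial markers, of which Vwf passed the filter, it was 3.64 to 5.43 CPM against 9.38 to 11.7 CPM. The part of these markers in the results below was not tested, and in bulk RNA fewer cells of a type and less RNA per cell cannot be told apart.

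Secreted and membrane proteins enter the ER through the Sec61 channel and fold there with the help of HSP70- and HSP90-type chaperones, the lectin chaperones calnexin and calreticulin, and enzymes that form disulfide bonds. When unfolded proteins accumulate, the membrane sensors IRE1 (Ern1), PERK (Eif2ak3) and ATF6 signal to the nucleus: IRE1 splices Xbp1 mRNA, PERK phosphorylates eIF2alpha and so favours translation of Atf4, and ATF6 is cut in the Golgi to release a transcription factor. These factors raise the transcription of chaperones and of the ER-associated degradation machinery, which returns misfolded proteins to the cytosol for the proteasome. Counts per gene measure neither Xbp1 splicing nor the phosphorylation or cleavage steps.

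ATF6 and XBP1 act through short promoter elements, and these were searched on both strands of the 300 bases around each start site (250 before and 50 after) in the RefSeq promoters of GRCm38.p6. A window was found for 31 of the 37 members and not for Atf6, Derl1, Hyou1, Manf, Sec61a1 and Ssr2. The ER stress response element (ERSE), searched as CCAAT and CCACG with any 9 bases between them, was present in 8 of the 31 members (25.8%) and in 37 of 27025 genes with a window (0.137%). The 8 members were Hspa5, Hsp90b1, Dnajc3, Creld2, Calr, Canx, Pdia6 and Syvn1. ERSE-II, searched as ATTGG and CCACG with any 1 base between them, was present in Dnajb11 and Herpud1 (6.45% of members, 0.0444% of genes). The UPR element TGACGTGG was present in Txndc5 (3.23% of members, 0.714% of genes). The element TGATGNAAT, bound by ATF4 with its partners, was in none of the 31 windows and in 1.08% of genes. ERSE and ERSE-II share the letters CCACG, whose reverse complement CGTGG lies within TGACGTGG.

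The 250 bases before the start site of Hspa5, on the plus strand at chr2:34771840-34772089, and of Herpud1, on the plus strand at chr8:94386179-94386428, are printed 5′ to 3′ because these are a chaperone and a degradation gene with 1 element each. Capitals mark the fixed letters of the element.
Hspa5: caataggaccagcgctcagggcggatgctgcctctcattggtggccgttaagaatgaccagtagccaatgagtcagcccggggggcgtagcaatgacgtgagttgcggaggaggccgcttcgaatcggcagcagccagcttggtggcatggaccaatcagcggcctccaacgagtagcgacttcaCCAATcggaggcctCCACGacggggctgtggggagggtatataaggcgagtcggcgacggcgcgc
Herpud1: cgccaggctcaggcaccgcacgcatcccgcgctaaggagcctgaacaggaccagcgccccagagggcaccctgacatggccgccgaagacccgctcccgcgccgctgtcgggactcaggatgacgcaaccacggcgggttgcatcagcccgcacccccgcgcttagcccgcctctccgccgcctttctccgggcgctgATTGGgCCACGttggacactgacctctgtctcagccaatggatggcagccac

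For the other members with an ERSE, the stretch around the match is printed in the same way, because these genes are compared with the members without the element below. Dnajc3 (chr14:118937815-118937857, plus strand), Canx (chr11:50325788-50325830, minus strand), Pdia6 (chr12:17266479-17266521, plus strand) and Syvn1 (chr19:6046520-6046562, plus strand) have the element in the direction of the gene. Creld2 (chr15:88819508-88819550, plus strand) and Calr (chr8:84847063-84847105, minus strand) have it in the opposite direction, where it reads CGTGG before ATTGG. Hsp90b1 has 1 match in each direction (chr10:86705626-86705668 and chr10:86705521-86705563, minus strand).
Hsp90b1 first: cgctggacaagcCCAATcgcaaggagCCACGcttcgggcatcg
Hsp90b1 second: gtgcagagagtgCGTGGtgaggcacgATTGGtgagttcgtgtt
Dnajc3: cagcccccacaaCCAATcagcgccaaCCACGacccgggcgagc
Creld2: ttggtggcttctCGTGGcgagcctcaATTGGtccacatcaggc
Calr: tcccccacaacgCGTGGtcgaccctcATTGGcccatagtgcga
Canx: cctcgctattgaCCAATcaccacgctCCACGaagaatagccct
Pdia6: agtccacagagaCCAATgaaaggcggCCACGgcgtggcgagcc
Syvn1: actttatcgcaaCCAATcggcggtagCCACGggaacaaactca

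Of the 37 tested members, 23 rose in sg-kiaa1522 (62.2%, against 26.3% of all tested genes) and 5 fell (13.5%, against 26.3%), at an adjusted p of at most 0.05 from the edgeR quasi-likelihood fit. So 28 passed the test in either direction, against 52.5% of all tested genes, and the other 9 did not. With the added threshold of a log2 fold change of 1, 4 members rose (Hyou1, Sel1l, Herpud1 and Ern1), against 2.74% of all tested genes, and 0 fell, against 4.34% (also 0 at an unadjusted p under 0.05 and 0 with DESeq2). When 1 library was left out, 4 to 6 members rose past this threshold. Ern1 was then at 0.98 to 1.15, so it did not pass in every such fit. The median log2 fold change was 0.29 over the 37 members and -0.01 over all tested genes. The groups did not overlap in 30 members (81.1%), against 61.7% of all tested genes. No tested sensor, HSP70- or HSP90-type chaperone, lectin chaperone or degradation gene fell (0 also at an unadjusted p under 0.05 and with DESeq2), and the 5 that fell were the disulfide isomerase P4hb, the oxidase Ero1l, the proline isomerase Fkbp2, the Sec61 subunit Sec61g and the TRAP subunit Ssr2. The difference between roles was not tested. In single libraries, the median over the members of the log2 ratio to the sg-con mean was -0.07, -0.02 and 0.05 in sg-con and 0.39, 0.27 and 0.26 in sg-kiaa1522.

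**Figure D1:**
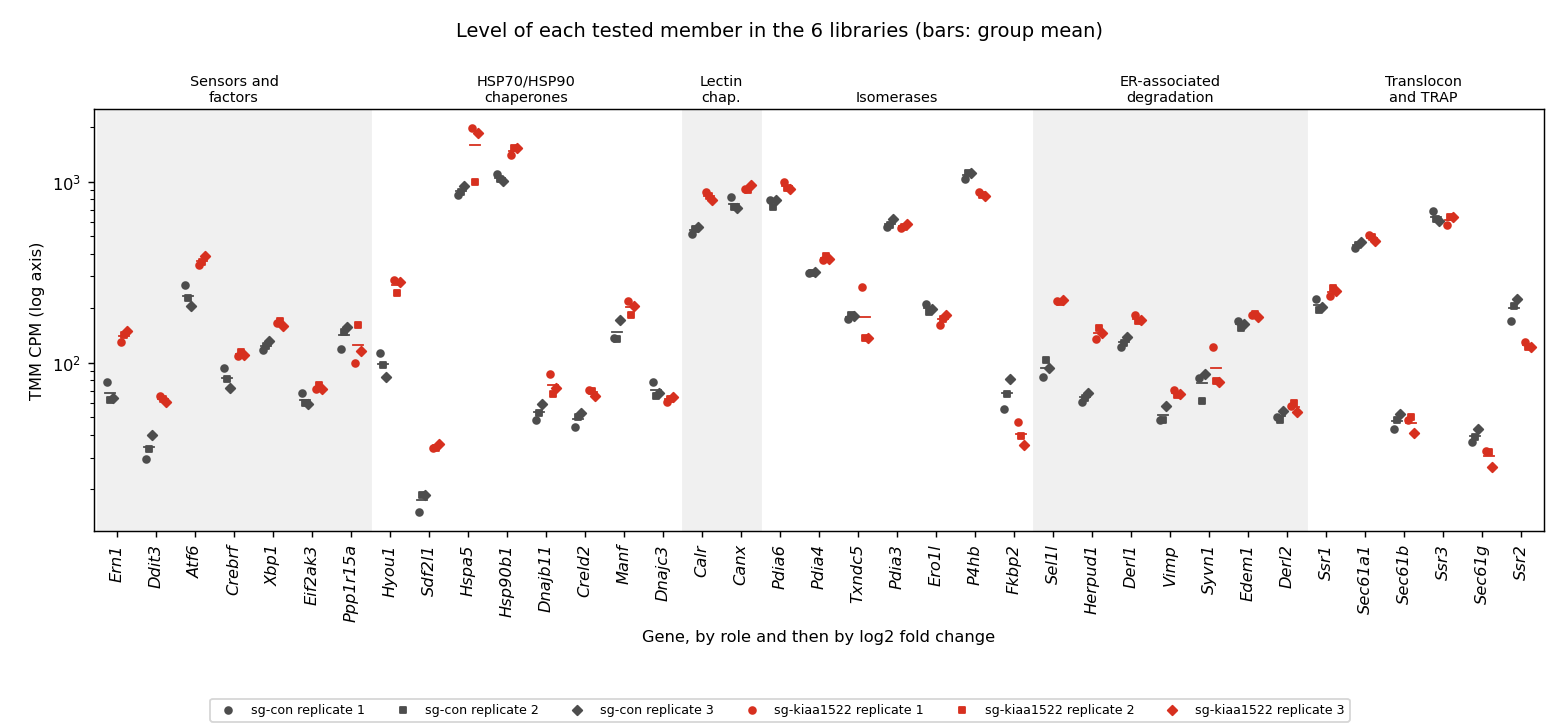
TMM-scaled CPM of each of the 37 tested members in the 6 libraries, on a log axis, with the genes grouped by role and ordered by log2 fold change within a role. Points are libraries and short bars are group means (n = 3); the sg-kiaa1522 points of Hyou1, Sel1l, Herpud1 and Ern1 lie far above those of sg-con, while those of P4hb, Fkbp2 and Ssr2 lie below, and Hspa5 has 1 sg-kiaa1522 library near the sg-con level.

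Of the 7 sensors and factors of the response, 6 rose (85.7%, against 26.3% of all tested genes) and 1 did not pass the test. Ern1, the sensor IRE1 that cuts Xbp1 mRNA (chr11:106394650-106487852, minus strand), was at 78.4, 62.5 and 63.6 CPM in the sg-con libraries and 130.4, 143 and 149.8 CPM in the sg-kiaa1522 libraries. The lowest sg-kiaa1522 library exceeded the highest sg-con library by a wide margin, and Ern1 rose from 68.2 ± 8.85 to 141 ± 9.87 CPM (SD, n = 3, log2 fold change 1.05, SE 0.104, adjusted p = 2.1e-04). Xbp1, the factor made from the spliced mRNA (chr11:5520659-5525893, plus strand), was at 117, 124 and 133 CPM in the sg-con libraries and 165, 169 and 159.9 CPM in the sg-kiaa1522 libraries. The libraries within each group were close together and the groups did not overlap, with a smaller rise than that of Ern1 (log2 fold change 0.40, SE 0.0668, adjusted p = 0.0019). Atf6, the membrane-bound factor of the second branch (chr1:170704674-170867771, minus strand), was at 268, 228 and 206 CPM in the sg-con libraries and 347, 358 and 387 CPM in the sg-kiaa1522 libraries. All 3 sg-kiaa1522 libraries were above all sg-con libraries (log2 fold change 0.64, SE 0.102, adjusted p = 0.0017).

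Within the PERK branch the changes were unequal. Ddit3, which encodes the stress factor CHOP (chr10:127290774-127296288, plus strand), was at 29.4, 33.3 and 40.00 CPM in the sg-con libraries and 65.9, 63.4 and 60.8 CPM in the sg-kiaa1522 libraries. Its lowest sg-kiaa1522 value lay above its highest sg-con value, and it rose from 34.2 ± 5.38 to 63.4 ± 2.54 CPM (SD, n = 3, log2 fold change 0.89, SE 0.119, adjusted p = 7.6e-04). About 3.97% of its exon bases are shared with Mars on the other strand, and the strand setting of the counting was not given in the sources used here. Eif2ak3, the kinase PERK itself, was at 67.9, 60.2 and 59.6 CPM against 71.5, 75.6 and 71.5 CPM. The groups did not overlap but the difference was small (log2 fold change 0.22, SE 0.0782, adjusted p = 0.047), and the call was lost when any library but sg-con replicate 1 was left out (log2 fold change 0.18 without sg-con replicate 2, 0.18 without sg-con replicate 3, 0.23 without sg-kiaa1522 replicate 1, 0.19 without replicate 2 and 0.24 without replicate 3, adjusted p from 0.078 to 0.17). Ppp1r15a, the phosphatase subunit GADD34 that reverses the action of PERK, was at 119, 149 and 158 CPM against 100.1, 161 and 116 CPM, with overlapping groups (log2 fold change -0.17, 95% interval -0.60 to 0.25, adjusted p = 0.45). Its value was -0.39 without sg-kiaa1522 replicate 2 (adjusted p = 0.064), -0.29 without sg-con replicate 1, -0.03 without sg-kiaa1522 replicate 1, -0.11 without sg-kiaa1522 replicate 3, -0.09 without sg-con replicate 3 and -0.15 without sg-con replicate 2. Crebrf, a regulator of the ER-membrane factor CREB3, was at 94.1, 81.8 and 72.6 CPM against 109, 115 and 110.3 CPM and rose (log2 fold change 0.43, SE 0.0975, adjusted p = 0.0083).

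Of the 8 tested HSP70- and HSP90-type chaperones and partners, 7 rose (87.5%, against 26.3% of all tested genes) and Dnajc3 did not pass the test. Hyou1, a large HSP70 relative that exchanges the nucleotide of BiP (chr9:44379490-44392369, plus strand), was at 113, 97.7 and 83.5 CPM in the sg-con libraries and 286, 242 and 279.9 CPM in the sg-kiaa1522 libraries. No sg-kiaa1522 library came near the sg-con range, and Hyou1 had the largest log2 fold change of the tested members, rising from 97.96 ± 14.6 to 269 ± 23.7 CPM (SD, n = 3, log2 fold change 1.46, SE 0.120, adjusted p = 1.1e-04). Leaving out 1 library at a time gave values from 1.35 to 1.56. Sdf2l1, a small partner of the ER DNAJ proteins (chr16:17130138-17132383, minus strand), was at 14.96, 18.5 and 18.7 CPM in the sg-con libraries and 34.03, 33.8 and 35.7 CPM in the sg-kiaa1522 libraries. The sg-kiaa1522 libraries were nearly equal and lay above all sg-con libraries (log2 fold change 0.99, SE 0.109, adjusted p = 3.3e-04).

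Hspa5, the ER HSP70 chaperone BiP and the usual marker of the response (chr2:34771970-34777547, plus strand), was at 840.2, 876 and 951 CPM in the sg-con libraries and 1965, 991 and 1844 CPM in the sg-kiaa1522 libraries. The 3 sg-con libraries were close together, whereas in sg-kiaa1522 replicates 1 and 3 were high and replicate 2 stood only just above the highest sg-con library. Hspa5 rose from 889 ± 56.4 to 1599.9 ± 531 CPM (SD, n = 3, log2 fold change 0.85, SE 0.230, adjusted p = 0.017), the widest range of any tested member within sg-kiaa1522, 1.98-fold between the highest and the lowest library. The call was lost without sg-con replicate 2 (0.83, adjusted p = 0.053), without sg-kiaa1522 replicate 1 (0.67, adjusted p = 0.056) and without sg-kiaa1522 replicate 3 (0.73, adjusted p = 0.056). Without sg-kiaa1522 replicate 2 the log2 fold change was 1.10 (adjusted p = 4.5e-04).

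Hsp90b1, the ER HSP90 chaperone GRP94 (chr10:86690209-86705509, minus strand), was at 1105, 1034 and 1009 CPM in the sg-con libraries and 1394, 1524 and 1527 CPM in the sg-kiaa1522 libraries. All 3 sg-kiaa1522 libraries were above all sg-con libraries, with a narrow spread in both groups (log2 fold change 0.50, SE 0.0632, adjusted p = 6.1e-04). About 10.3% of its exon bases overlap the antisense pseudogene 1810014B01Rik, which held 291 counts in all. The co-chaperone Dnajb11 was at 48.1, 52.9 and 59.1 CPM against 86.3, 67.1 and 72.2 CPM and rose (log2 fold change 0.49, SE 0.119, adjusted p = 0.010). The groups did not overlap in Dnajb11, nor in the 2 small stress-responsive proteins Creld2 and Manf. Creld2 was at 44.1, 50.3 and 53.1 CPM against 71.2, 70.2 and 65.5 CPM (log2 fold change 0.49, SE 0.0906, adjusted p = 0.0033). Manf, which binds BiP, was at 136, 135 and 172 CPM against 219, 184 and 206 CPM (log2 fold change 0.46, SE 0.113, adjusted p = 0.011). About 4.14% of the exon bases of Manf are shared with Dcaf1 on the other strand. Both genes rose, by less than Hyou1 or Sdf2l1 in log2 fold change. Dnajc3, the co-chaperone p58IPK, was at 78.02, 65.7 and 68.1 CPM against 60.8, 63.03 and 64.5 CPM, lower in each sg-kiaa1522 library without passing the test (log2 fold change -0.17, 95% interval -0.37 to 0.03, adjusted p = 0.13). Dnajc3 lies on chromosome 14, where the median log2 fold change over 343 tested genes was -0.38, and with that median removed its value was 0.21. Without sg-con replicate 1 it was -0.10.

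Dnajb9, the co-chaperone ERdj4 that keeps IRE1 inactive (chr12:44205559-44210326, minus strand), had 0, 0 and 2 counts in sg-con and 47, 81 and 108 counts in sg-kiaa1522, too few to pass the filter. In CPM this was 0, 0 and 0.119 against 3.85, 4.40 and 6.33. The mean of the sg-kiaa1522 libraries was at least 28.5-fold higher than a floor of 3 counts per sg-con library (0.171 CPM). Since almost all of its counts lie in the group where it is high, no test is given. Derl3, a Derlin family gene, was at 0 counts in all 6 libraries, which allows up to 3 counts per library, and this floor covers counting error only.

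**Figure D2:**
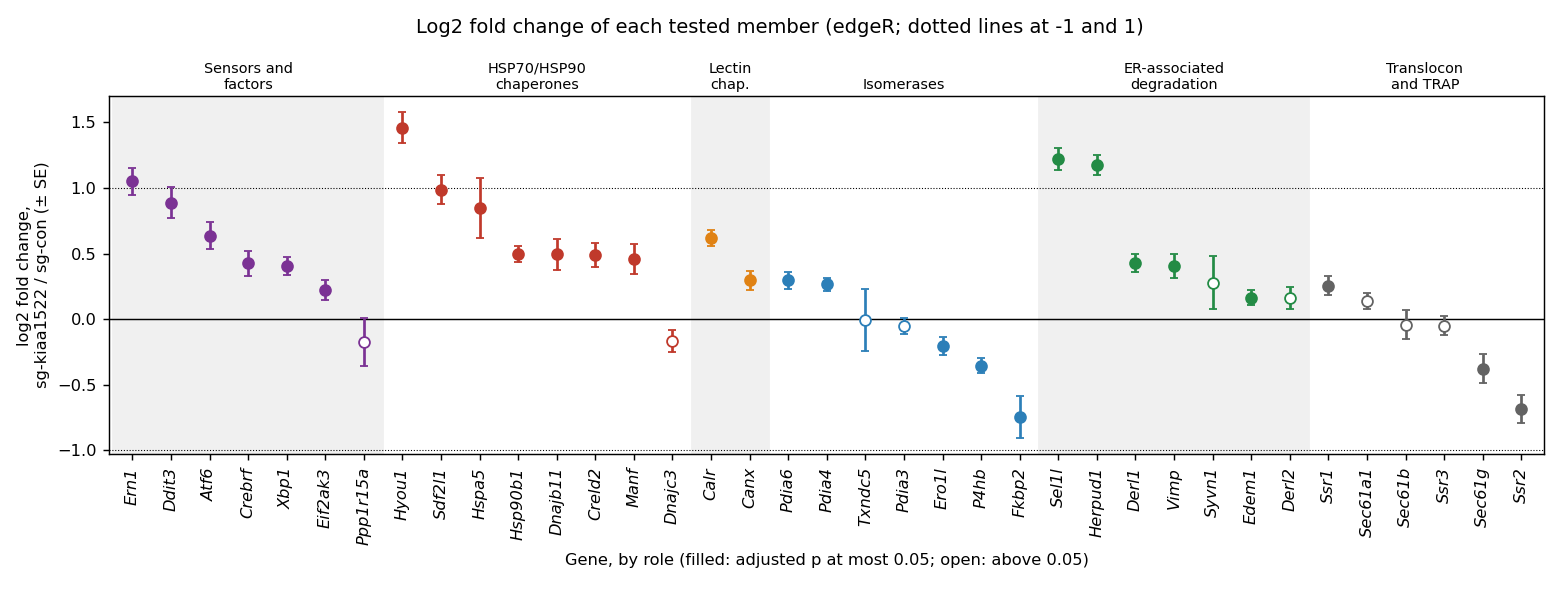
Log2 fold change of sg-kiaa1522 over sg-con with its standard error for the 37 tested members, grouped by role, where filled points have an adjusted p of at most 0.05 and open points do not. Hyou1, Sel1l, Herpud1 and Ern1 lie above 1, no member lies below -1, and the negative filled points are Ero1l, P4hb, Fkbp2, Sec61g and Ssr2.

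Both lectin chaperones rose, as did 26.3% of all tested genes. Calr, the soluble chaperone calreticulin (chr8:84841850-84846934, minus strand), was at 517, 549.8 and 563 CPM in the sg-con libraries and 872, 833 and 794 CPM in the sg-kiaa1522 libraries. The groups were well apart relative to their spread (log2 fold change 0.62, SE 0.0619, adjusted p = 2.2e-04). Canx, its membrane-bound relative calnexin, was at 821, 720.4 and 711 CPM against 911, 899.7 and 954 CPM. The lowest sg-kiaa1522 library of Canx was above the highest sg-con library, by a smaller margin than in Calr (log2 fold change 0.30, SE 0.0704, adjusted p = 0.0098).

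Of the 7 isomerases and oxidases, 2 rose (28.6%, near the 26.3% of all tested genes), 3 fell (42.9%, against 26.3%) and 2 did not pass the test. Pdia6 and Pdia4, both protein disulfide isomerases, rose. Pdia6 was at 786, 726 and 791 CPM against 991, 922 and 912 CPM (log2 fold change 0.29, SE 0.0620, adjusted p = 0.0056), and 0.17 with the median of its chromosome removed. Pdia4 was at 314, 313 and 317 CPM against 371, 388 and 375 CPM (log2 fold change 0.27, SE 0.0516, adjusted p = 0.0040). The groups did not overlap in either gene. P4hb, the founding protein disulfide isomerase and also a subunit of collagen prolyl hydroxylase (chr11:120560298-120573253, minus strand), went the other way, with 1039.7, 1121 and 1113 CPM in the sg-con libraries and 880.4, 847 and 829 CPM in the sg-kiaa1522 libraries. Every sg-kiaa1522 library was below every sg-con library, and P4hb fell from 1091 ± 44.6 to 852 ± 26.05 CPM (SD, n = 3, log2 fold change -0.36, SE 0.0564, adjusted p = 0.0016). Pdia3, the isomerase that works with calnexin and calreticulin, was at 559, 579 and 619 CPM against 552, 563 and 580.3 CPM, with overlapping groups (log2 fold change -0.05, 95% interval -0.19 to 0.09, adjusted p = 0.50). With 1 library left out, Pdia3 was at -0.09 to -0.01, lowest without sg-con replicate 1 and nearest 0 without sg-con replicate 3, and with its chromosome's median removed it was -0.19.

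Fkbp2, a proline isomerase of the ER (chr19:6977741-6980501, minus strand), was at 55.3, 67.3 and 81.02 CPM in the sg-con libraries and 47.1, 39.3 and 35.2 CPM in the sg-kiaa1522 libraries. The groups did not overlap, although both were spread, and Fkbp2 had the largest fall among the tested members (log2 fold change -0.75, SE 0.162, adjusted p = 0.0064). Ero1l, the oxidase that recharges PDI (chr14:45283087-45318771, minus strand), was at 211, 192 and 199 CPM against 163, 175 and 183 CPM. Its groups did not overlap and it fell by little (log2 fold change -0.21, SE 0.0695, adjusted p = 0.038). Ero1l lies on chromosome 14 as well, and with the chromosome median removed its value was 0.17. Its call was lost without sg-con replicate 1 (-0.18), sg-con replicate 3 (-0.22), sg-kiaa1522 replicate 1 (-0.16), replicate 2 (-0.21) or replicate 3 (-0.25), with adjusted p from 0.051 to 0.12. Txndc5, a thioredoxin-domain isomerase, was at 173, 184 and 180.4 CPM in the sg-con libraries and 262, 138 and 137 CPM in the sg-kiaa1522 libraries. Replicate 1 of sg-kiaa1522 was above the sg-con range and the other two were below it, so the group means were equal at 179 CPM (log2 fold change -0.01, 95% interval -0.57 to 0.55, adjusted p = 0.98). Without sg-kiaa1522 replicate 1 the value was -0.39 (adjusted p = 0.0052).

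Of the 7 tested genes of ER-associated degradation, 5 rose (71.4%) and 0 fell, against 26.3% and 26.3% of all tested genes. Sel1l, the adaptor that holds the ubiquitin ligase HRD1 in its complex (chr12:91806043-91849157, minus strand), was at 83.3, 104 and 94.04 CPM in the sg-con libraries and 218, 216 and 222 CPM in the sg-kiaa1522 libraries. The sg-kiaa1522 libraries were nearly equal and each was above every sg-con library, and Sel1l rose from 93.8 ± 10.4 to 219 ± 3.19 CPM (SD, n = 3, log2 fold change 1.22, SE 0.0865, adjusted p = 6.7e-05). Herpud1, a stress-induced scaffold of the same complex (chr8:94386438-94395377, plus strand), was at 60.9, 64.3 and 68.4 CPM in the sg-con libraries and 135, 156 and 145 CPM in the sg-kiaa1522 libraries. The groups were far apart, and Herpud1 rose from 64.5 ± 3.72 to 146 ± 10.3 CPM (SD, n = 3, log2 fold change 1.18, SE 0.0786, adjusted p = 5.3e-05). Without any 1 library, the log2 fold change stayed within 1.13 to 1.29 for Sel1l and 1.12 to 1.23 for Herpud1.

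Syvn1, which encodes HRD1 itself, was at 82.3, 61.4 and 86.9 CPM in the sg-con libraries and 123, 78.99 and 78.5 CPM in the sg-kiaa1522 libraries. Only replicate 1 of sg-kiaa1522 was above the sg-con range, and the groups overlapped (log2 fold change 0.28, 95% interval -0.19 to 0.75, adjusted p = 0.28). Without sg-kiaa1522 replicate 1 the value of Syvn1 was 0.036 (adjusted p = 0.86), without sg-con replicate 2 it was 0.13, and without any other library it was 0.32 to 0.39. Derl1, a channel component of the degradation machinery, was at 123, 129 and 139 CPM against 183, 169.7 and 173 CPM and rose (log2 fold change 0.43, SE 0.0689, adjusted p = 0.0017). Vimp (Selenos), which links Derlins to the ATPase p97, was at 48.1, 48.3 and 57.4 CPM against 70.6, 66.1 and 67.5 CPM and rose (log2 fold change 0.41, SE 0.0918, adjusted p = 0.0077). Neither gene had overlapping groups. Derl2, the close relative of Derl1, was at 50.4, 48.5 and 54.3 CPM against 57.7, 60.2 and 53.6 CPM, with overlapping groups (log2 fold change 0.16, 95% interval -0.03 to 0.36, adjusted p = 0.14). Edem1, which marks misfolded glycoproteins by trimming mannose, was at 169, 156 and 163 CPM against 183, 186 and 178 CPM (log2 fold change 0.16, SE 0.0583, adjusted p = 0.047). The Edem1 groups were separate but close, and its call was lost without sg-con replicate 2 (0.13), sg-con replicate 3 (0.16), or sg-kiaa1522 replicate 1 (0.16), replicate 2 (0.15) or replicate 3 (0.18), with adjusted p from 0.091 to 0.18.

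Of the 6 genes of the translocon and of the translocon-associated protein (TRAP) complex, 1 rose (16.7%), 2 fell (33.3%) and 3 did not pass the test, shares that with so few genes are not far from the 26.3% of all tested genes in either direction. Ssr2, the beta subunit of TRAP (chr3:88575876-88588419, plus strand), was at 171, 207 and 225 CPM in the sg-con libraries and 131, 123 and 122 CPM in the sg-kiaa1522 libraries. All sg-kiaa1522 libraries were well below the lowest sg-con library, and Ssr2 fell from 201 ± 27.8 to 125 ± 5.08 CPM (SD, n = 3, log2 fold change -0.69, SE 0.104, adjusted p = 0.0013). About 12.8% of its exon bases overlap the pseudogene Gm10704 on the other strand. Ssr1, the alpha subunit of the same complex, was at 224, 196 and 202 CPM against 234, 259 and 248 CPM. It went in the opposite direction, with groups that did not overlap (log2 fold change 0.25, SE 0.0734, adjusted p = 0.022), and lost its call without sg-con replicate 2 (0.20), sg-con replicate 3 (0.23), sg-kiaa1522 replicate 2 (0.22) or sg-kiaa1522 replicate 3 (0.25), with adjusted p from 0.062 to 0.092. Ssr3, the gamma subunit, was at 685, 621 and 608 CPM against 573, 641 and 636 CPM, and the groups overlapped (log2 fold change -0.05, 95% interval -0.22 to 0.12, adjusted p = 0.59). With its chromosome's median removed, Ssr3 was at 0.07.

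Sec61a1, the channel-forming subunit of Sec61, was at 427, 449 and 463 CPM against 509, 496 and 467 CPM, separate but short of the threshold (log2 fold change 0.14, 95% interval -0.01 to 0.28, adjusted p = 0.096). Sec61b, the beta subunit, had overlapping groups at 43.1, 48.4 and 52.1 CPM against 48.4, 50.00 and 40.97 CPM (log2 fold change -0.04, 95% interval -0.30 to 0.21, adjusted p = 0.76), and -0.12 with its chromosome's median removed. Sec61g, the gamma subunit, was at 36.6, 38.8 and 43.05 CPM against 32.6, 32.2 and 26.4 CPM. It was lower in each sg-kiaa1522 library and fell (log2 fold change -0.38, SE 0.111, adjusted p = 0.023), although the call was lost without sg-con replicate 2 (-0.40), sg-con replicate 3 (-0.31) or sg-kiaa1522 replicate 3 (-0.28), with adjusted p from 0.052 to 0.077.

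**Figure D3:**
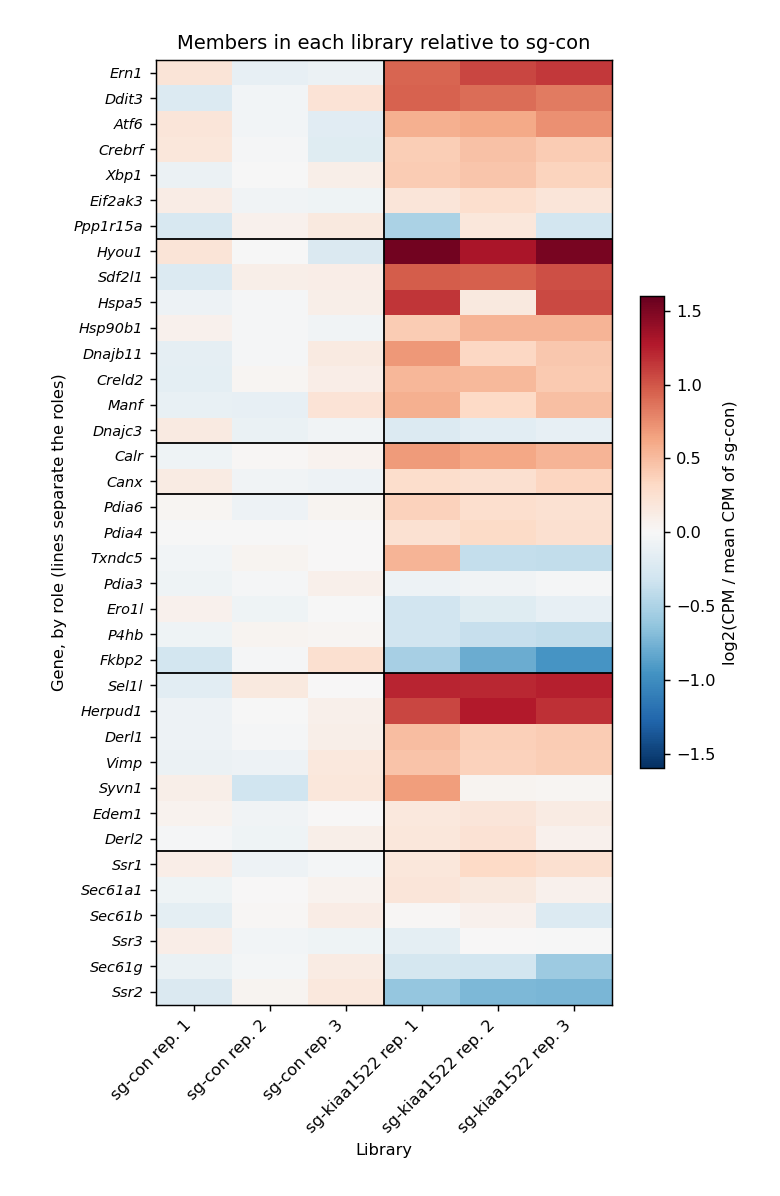
Log2 ratio of the CPM in each library to the mean CPM of the 3 sg-con libraries, for the 37 tested members, with lines between the roles. Replicate 2 of sg-kiaa1522 stands out in Hspa5 and replicate 1 in Txndc5 and Syvn1, whereas Hyou1, Sel1l, Herpud1 and Ern1 are high in all 3 sg-kiaa1522 libraries.

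For most members the libraries of a group were close together. The range between the highest and the lowest library had a median of 1.15-fold within sg-con and 1.10-fold within sg-kiaa1522. It exceeded 1.2-fold in 15 members within sg-con and in 8 within sg-kiaa1522 (Hspa5, Txndc5, Ppp1r15a, Syvn1, Fkbp2, Dnajb11, Sec61g and Sec61b). Replicate 1 of sg-kiaa1522 was the highest in these 8 except in Sec61b and Ppp1r15a, where replicate 2 was.

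Levels of different genes were compared as CPM per kilobase of exon. In sg-con, P4hb was the highest of the tested members at 381 ± 15.6 (SD, n = 3), followed by Hsp90b1 at 260.3 ± 12.4, Hspa5 at 210.2 ± 13.3 and Pdia6 at 205 ± 9.72. Hspa5 and Pdia6 did not differ beyond their spread, nor did the next pair, Calr at 189 ± 8.21 and Pdia3 at 187 ± 9.70. In sg-kiaa1522 the order began with Hspa5 at 378 ± 126 and Hsp90b1 at 367 ± 18.9, and P4hb followed at 298 ± 9.10. The spread of Hspa5 covered both of these neighbours, and P4hb and Calr (289 ± 13.6) lay within their spread of each other. With the mean transcript length in place of the exon length, P4hb was 1st in sg-con and 5th in sg-kiaa1522. Hyou1, with the largest log2 fold change, remained far less abundant, at 13.5 ± 2.02 in sg-con and 37.3 ± 3.28 in sg-kiaa1522.

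The 8 tested members with an ERSE in the window included 6 that rose and 0 that fell (0 also at an unadjusted p under 0.05 and with DESeq2), with a median log2 fold change of 0.39. The 23 without one included 13 that rose and 4 that fell, with a median of 0.22. Both stood above the 7659 other tested genes with a window and no ERSE in their share of rises, since 26.4% of those rose and 25.9% fell. The difference between members with and without the element was not tested. The 2 with an ERSE that did not pass the test were Dnajc3 and Syvn1. Ern1, Sel1l, Sdf2l1 and Ddit3, which all rose, held none of the 4 elements in the window. Nor did P4hb, Ero1l, Fkbp2 and Sec61g, which all fell. Of the 5 other tested genes with an ERSE, 3 rose and 1 fell. A match shows letters in a window and not that a factor is bound there.

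The other genes of the pathway came from 4 lists, and 98 of them were tested. As a whole they stood near the background, with 26 higher (26.5%), 24 lower (24.5%) and a median log2 fold change of 0.00. These totals include Fkbp10 among the 26, which held 93 counts in sg-con and 558 in sg-kiaa1522. It passed the filter only through the group where it is high. Among 17 other signalling genes of the response, 6 rose (35.3%) and 3 fell (17.6%), against 26.3% and 26.3% of all tested genes. Chac1, an enzyme that degrades glutathione downstream of ATF4, was at 27.7, 32.3 and 42.4 CPM against 92.3, 83.1 and 84.2 CPM (log2 fold change 1.34, SE 0.152, adjusted p = 3.7e-04). Stc2, a secreted glycoprotein induced by ER stress, was at 38.1, 38.5 and 37.8 CPM against 101, 91.6 and 91.03 CPM (log2 fold change 1.31, SE 0.0737, adjusted p = 2.8e-05), and Trib3, a pseudokinase target of ATF4 and CHOP, was at 34.6, 52.1 and 62.5 CPM against 120.1, 111 and 117 CPM (log2 fold change 1.22, SE 0.190, adjusted p = 0.0015). In all 3 genes the sg-kiaa1522 libraries were far above the sg-con libraries. Atf4 itself was at 440.1, 538 and 558 CPM against 659.6, 633 and 610.2 CPM and rose (log2 fold change 0.31, SE 0.0937, adjusted p = 0.026), and Wfs1, the ER membrane protein wolframin, rose too (log2 fold change 0.73, adjusted p = 5.1e-04). Creb3, an ER-membrane factor, fell (log2 fold change -0.87, adjusted p = 5.3e-04), with 15.2% of its exon bases shared with Tln1 on the other strand, and so did Tmbim6 (log2 fold change -0.22, adjusted p = 0.038) and Mbtps1, the protease that cuts ATF6 (log2 fold change -0.22, adjusted p = 0.018). Atf4, Wfs1 and Mbtps1 were named after their values were seen. Creb3l1 was not tested, with 67 counts in all.

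Of 28 other ER folding factors, 8 rose (28.6%) and 7 fell (25%), near the 26.3% of all tested genes in either direction, with a median of -0.02. Fkbp10, a proline isomerase for collagen, was at 1.71, 1.45 and 2.15 CPM against 13.8, 10.6 and 11.4 CPM. It held 93 counts in sg-con and 558 in sg-kiaa1522 and so passed the filter only through the group where it is high, for which reason no test is given. Without it, 7 of 27 rose and 7 fell, with a median of -0.07. For Fkbp10, 6.58% of its exon bases are shared with Nt5c3b on the other strand. Txndc11 had the largest rise among the others (log2 fold change 0.48, adjusted p = 0.0020), and the largest falls were in Cnpy2 (log2 fold change -0.76, adjusted p = 0.0019) and the disulfide oxidase Qsox1 (log2 fold change -0.66, adjusted p = 1.4e-04). Uggt2 and Clgn were not tested. Of 23 other degradation genes, 6 rose and 6 fell (26.1% each, against 26.3% of all tested genes). The cytosolic glycanase Ngly1 was at 41.7, 42.8 and 43.2 CPM against 17.96, 19.8 and 20.3 CPM and fell (log2 fold change -1.14, SE 0.0827, adjusted p = 7.1e-05), as did the lectin Os9 (log2 fold change -0.89, adjusted p = 3.8e-04), while Erlin1 (log2 fold change 0.66, adjusted p = 0.0026) and the p97 cofactor Nploc4 (log2 fold change 0.61, adjusted p = 2.0e-04) rose. Ubxn8 and Svip were not tested and Marchf6 had no row.

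Of 30 other genes for targeting, translocation, signal peptide removal and N-glycan transfer, 6 rose (20%) and 8 fell (26.7%), against 26.3% of all tested genes in either direction, with a median of -0.10. Srpr, the receptor for the signal recognition particle, was at 109, 108 and 104 CPM against 216, 226 and 224 CPM. Its values were tight in each group and its groups far apart (log2 fold change 1.05, SE 0.0560, adjusted p = 2.4e-05). Sec61a2, the second channel-forming subunit, also rose (log2 fold change 0.48, adjusted p = 0.0046), with 19.9% of its exon bases shared with Nudt5 on the other strand. The signal peptidase subunit Spcs1 (log2 fold change -0.92, adjusted p = 0.0072) and the oligosaccharyltransferase subunit Ddost (log2 fold change -0.69, adjusted p = 4.7e-04) fell, with 16.3% of the exon bases of Spcs1 shared with Glt8d1 on the other strand. Srp54a was not tested, with 1 count in all.

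**Figure D4:**
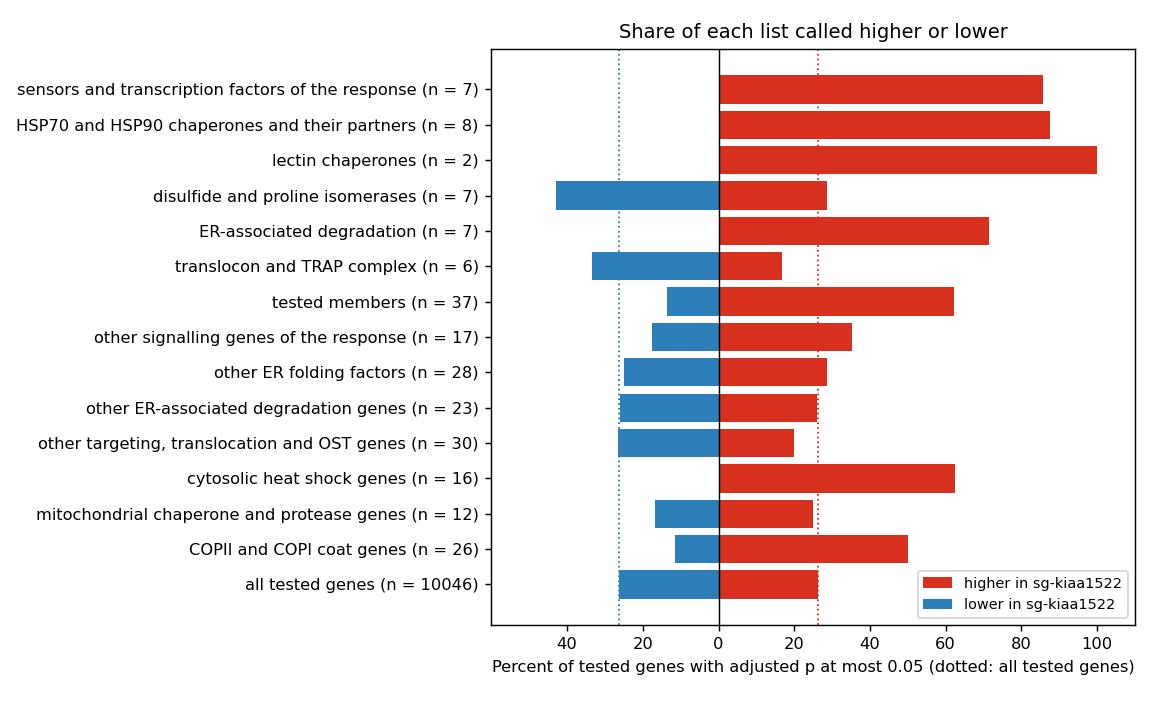
Percent of the tested genes of each list with an adjusted p of at most 0.05, to the right when higher and to the left when lower in sg-kiaa1522, with dotted lines at the shares over all 10046 tested genes. The 37 tested members show 62.2% higher and 13.5% lower, and the 4 lists of other pathway genes reach at most 35.3% higher and 26.7% lower. The cytosolic heat shock genes show 62.5% higher and 0% lower, including Hspa1b, which passed the filter only through sg-kiaa1522. The COPII and COPI coat genes show 50% higher and 11.5% lower, and the mitochondrial genes show 25% and 16.7%.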

How the data were processed

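RNA of line 889 was sequenced in 3 sg-con and 3 sg-kiaa1522 libraries. The authors deposited whole-number counts per gene, without normalization. Per the submitters' processing notes, HISAT2 2.0.4, StringTie 1.3.0 and GRCm38 were used, and the strand setting was not given in the sources used here.

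Genes whose summed count exceeded 500 were kept, as in the study's methods, and fitted with edgeR 4.0.16 (R 4.3.3, TMM scaling, quasi-likelihood test, Benjamini-Hochberg adjustment over 10046 genes). Adjusted p-values come from this test, and a gene was called at 0.05 or less. TMM factors were 0.990 to 1.01, so CPM values follow library size, where CPM is counts per 1000000 scaled counts of a library. Exon lengths, positions and overlaps came from GENCODE M21, to which 34267 genes were matched. On simulated counts for 10046 genes, the fit recovered 55 of 100 genes changed 1.5-fold and 99 of 100 changed 2-fold. It also called 8 unchanged genes. Few genes changed in the simulation, unlike in these data.

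The members and lists were chosen with earlier results of these data known. Every member was named, with the list genes past a log2 fold change of 1 and the 2 largest rises and 2 largest falls per list. Alternatives were RLE factors, library size alone, filterByExpr, no filter, DESeq2 1.42.0, a replicate block, each library left out, chromosome medians removed and transcript length. Libraries of a group differed by more than sampling noise. No protein sequences were used.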

Additional observations from a re-analysis of the deposited data

How the results depend on the processing

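Of the 37 tested members, 28 kept their direction and their side of the 0.05 threshold in all 12 alternative fits, and the median log2 fold change of the members was 0.25 to 0.32. The number of members that rose was 19 to 23 in the fits that did not take in Dnajb9. The counts of 24 with filterByExpr and 22 with no filter include Dnajb9, as do the medians of both fits. Its call is not used, since almost all of its counts lie in sg-kiaa1522. The number that fell was 3 with the replicate block and 3 to 5 when 1 library was left out (3 without sg-con replicate 3 or sg-kiaa1522 replicate 3). Values that changed sign in a fit were those of Txndc5 (0.0027 with filterByExpr, -0.39 to 0.16 with 1 library left out), Sec61b (-0.12 to 0.041 with 1 library left out) and Ssr3 (-0.087 to 0.0012, the latter without sg-kiaa1522 replicate 1). With the chromosome median removed, which gives no test, Ero1l (0.17), Dnajc3 (0.21) and Ssr3 (0.07) changed sign. Of the members, 10 besides Ero1l moved by more than the spread between replicates, among them Dnajc3 and Ssr3. The others were Pdia6 (0.29 to 0.17), Pdia3 (-0.05 to -0.19), Sel1l (1.22 to 1.10), Derl1 (0.43 to 0.33) and Calr (0.62 to 0.53). Atf6 (0.64 to 0.84), Ddit3 (0.89 to 1.08) and Hsp90b1 (0.50 to 0.69) also moved, away from 0. Syvn1 (0.28 to 0.09) and Sec61b (-0.04 to -0.12) shifted within that spread. The cause was not tested. Calls of Hspa5, Ssr1, Eif2ak3, Edem1, Ero1l and Sec61g were lost in some fits without 1 library, which also hold fewer samples. Eif2ak3 and Edem1 lost theirs with library size alone (adjusted p = 0.054 and 0.061) and, with Ero1l, with no filter (adjusted p = 0.074, 0.089 and 0.064).

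The replicate numbers gave no pairing: deviations of libraries with the same number had correlations of -0.21, -0.05 and -0.17 across genes, and no library correlated best with its own number. With the replicate block, 20 members rose and 3 fell, Ssr1, Eif2ak3, Edem1, Ero1l and Sec61g lost their call, and 4220 of all genes were called, of which 4177 are among the 5277 of the unblocked fit.

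Dnajb9 and Derl3 held too few counts for the filter, and the counts cannot show splicing, translation or protein.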

Other observations

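The cytosolic heat shock genes, which serve proteins outside the ER, were not among the members. Of 20 listed genes 16 were tested, of which 10 rose (62.5%), 0 fell and 6 did not pass the test, with a median log2 fold change of 0.35. Over all tested genes, 26.3% rose and 26.3% fell. Hspa1b, an inducible HSP70, was at 5.37, 5.58 and 5.08 CPM against 15.7, 12.2 and 14.1 CPM and held 283 counts in sg-con and 655 in sg-kiaa1522, so that it passed the filter only through the group where it is high and no test is given. Its near-identical copy Hspa1a held 11 counts in all, so the split of reads between them is uncertain. Without Hspa1b, 9 of 15 rose and 0 fell, with a median of 0.23. Hsph1, the cytosolic counterpart of Hyou1, was at 38.5, 34.6 and 42.7 CPM against 93.4, 92.6 and 85.5 CPM (log2 fold change 1.23, SE 0.0947, adjusted p = 8.8e-05). The groups of Hsph1 were far apart. Hspb1, Hspb8 and Cryab did not pass the filter, with 2, 4 and 197 counts in all. At an unadjusted p under 0.05, 1 of the 16 (Hspa8, log2 fold change -0.18, named after its value was seen) was lower, and 0 fell with DESeq2.

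The 26 coat genes of COPII and COPI vesicles, which carry cargo between ER and Golgi, included 13 that rose (50% against 26.3% of all tested genes), 3 that fell (Sec24c, Mcfd2 and Copa, the latter named after its value was seen) and 10 that did not pass the test, with a median of 0.23. The COPII subunits Sec24a (log2 fold change 0.97, adjusted p = 8.7e-04) and Sec13 (log2 fold change 0.92, adjusted p = 5.2e-05) had the largest rises, and Sec24c (log2 fold change -0.23, adjusted p = 0.017) and Mcfd2 (log2 fold change -0.23, adjusted p = 0.016) the largest falls. Of 12 mitochondrial chaperone and protease genes, 3 rose (25%, near the 26.3% of all tested genes) and 2 fell, with a median of 0.07. The mitochondrial co-chaperone Dnaja3 (log2 fold change 0.61, adjusted p = 3.2e-04) and the HSP70 Hspa9 (log2 fold change 0.45, adjusted p = 0.0013) had the largest rises, and Trap1 (log2 fold change -0.36, adjusted p = 0.0025) and Lonp1 (log2 fold change -0.33, adjusted p = 0.018) the only falls.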
